A study of Mus musculus with 21 samples.

Results

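The transcripts of 10 genes of glucose use and of the response to low oxygen were followed across 21 libraries from Hepa1-6 tumours, a mouse hepatoma line grown in C57BL/6 mice. The genes were listed by name: Slc2a1, Hk2, Pfkfb3, Pgk1 and Ldha of the glycolysis pathway, and Car9, Vegfa, Egln3, Bnip3 and Ndrg1 of the wider hypoxia response. All 10 were matched by symbol among the 55487 Ensembl identifiers of the count table, and all 10 passed the filter on low counts together with 19051 other genes. The tumours came from mice labelled WT or B-cell depleted that received isotype antibody or anti-PD1 plus anti-CTLA4, called the combination below. WT mice gave 5 isotype and 5 combination libraries, B-depleted mice gave 6 and 5, and every tumour was of the same cell line in the same mouse strain. The series asks what B cells do when liver cancer is treated with these antibodies. How B cells were depleted, the age of the mice and whether each library is a separate animal are not given in the labels, so the p-values below measure the spread between these libraries.

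When oxygen is short, the prolyl hydroxylases that mark the alpha subunits of hypoxia-inducible factor (HIF) for destruction slow down, and HIF pairs with Arnt and binds DNA at a short core, ACGTG or GCGTG, near its target genes. Many of those targets move glucose into the cell and through glycolysis to lactate. Others remodel vessels, pH or mitochondria. Hepatomas as a class use glycolysis heavily, and T cells and macrophages also raise it when they are activated, so in whole tumours these transcripts can come from several kinds of cell.

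RefSeq promoter windows (GRCm38.p6, from 250 bases before to 50 bases after the transcription start, 300 bases in all) were found for 9 of the 10 genes. The core ACGTG was searched on both strands. On the opposite strand it reads CACGT, so the palindrome CACGTG holds both readings and counts on each strand. By this count 8 of the 9 windows held at least 1 match, and of 20542 genes with 1 window each 20.4% did. With GCGTG counted too, 8 of the 9 windows and 47.5% of the genes held a match. The 9 windows had a GC content of 54.7 to 71.7%, and the median over all genes was 55.0%. The 4 windows shown are those of Pfkfb3, whose transcript went the other way from the rest, Ldha, which had the most matches, Bnip3, which has the palindrome, and Car9, a gene widely used as a hypoxia marker. They lie at chr2:11553880-11554179 on the minus strand, chr7:46845554-46845853 on the plus strand, chr7:138909457-138909756 on the minus strand and chr4:43506776-43507075 on the plus strand. Each is written 5′ to 3′ on the strand of its gene, and capitals mark ACGTG or CACGT.
Pfkfb3: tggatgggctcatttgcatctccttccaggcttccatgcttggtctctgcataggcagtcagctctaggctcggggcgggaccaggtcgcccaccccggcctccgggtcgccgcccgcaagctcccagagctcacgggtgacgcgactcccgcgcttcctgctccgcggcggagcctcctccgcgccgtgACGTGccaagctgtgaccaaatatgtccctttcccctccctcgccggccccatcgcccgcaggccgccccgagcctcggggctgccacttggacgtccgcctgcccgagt
Ldha: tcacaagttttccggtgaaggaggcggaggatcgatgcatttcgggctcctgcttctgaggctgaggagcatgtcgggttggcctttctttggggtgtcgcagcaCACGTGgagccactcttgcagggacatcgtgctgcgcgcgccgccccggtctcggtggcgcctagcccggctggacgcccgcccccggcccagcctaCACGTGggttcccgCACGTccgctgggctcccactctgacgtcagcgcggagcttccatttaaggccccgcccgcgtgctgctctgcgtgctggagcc
Bnip3: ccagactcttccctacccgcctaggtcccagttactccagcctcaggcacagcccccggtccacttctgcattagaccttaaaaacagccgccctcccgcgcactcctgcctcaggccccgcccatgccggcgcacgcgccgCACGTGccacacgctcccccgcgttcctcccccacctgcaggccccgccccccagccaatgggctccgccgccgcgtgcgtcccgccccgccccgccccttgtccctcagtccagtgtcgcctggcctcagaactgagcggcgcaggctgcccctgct
Car9: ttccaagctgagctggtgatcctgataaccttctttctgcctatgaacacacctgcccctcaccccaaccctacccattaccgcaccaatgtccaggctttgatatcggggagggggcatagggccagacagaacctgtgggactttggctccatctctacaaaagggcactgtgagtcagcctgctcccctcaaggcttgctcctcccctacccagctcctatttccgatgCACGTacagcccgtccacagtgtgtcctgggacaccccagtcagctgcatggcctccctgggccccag
Pfkfb3 had 1 match that began 60 bases before the start, and Car9 had 1 that began 18 bases before it. Ldha had 5 matches, from 2 palindromes and a single CACGT 34 bases before the start, and Bnip3 had 2, both in 1 palindrome. Of the other windows Hk2 and Pgk1 held 2 matches each, Slc2a1 and Egln3 held 1 each, and Vegfa held 0. A match of these letters is a description and no evidence of binding.

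Total counts per library ran from 9.52 to 19.17 M, and levels are given as CPM, a gene's counts scaled to the total of its library. Summed levels of marker genes differed between the groups. The 8 fibroblast markers summed to 2788 to 5203 CPM in WT isotype and 7548 to 27140 CPM in WT combination, and to 2525 to 5606 CPM and 2991 to 25240 CPM in B-depleted isotype and combination. Only WT combination replicates 4 and 5 and B-depleted combination replicate 5 were above 20000 CPM. The 9 hepatocyte markers summed to 1545 to 4377 CPM in WT isotype and 439.9 to 1645 CPM in WT combination, and to 2015 to 3759 and 1026 to 2805 CPM in the B-depleted groups. T-cell markers (10 of 10), macrophage markers (10 of 10) and B-cell markers (5 of 7 tested) rose in WT combination against WT isotype by edgeR. Of all genes tested, 25.0% were called higher and 25.0% lower in this comparison. The T-cell sum was 78.1 to 160.2 CPM in WT isotype and 378.7 to 613.8 CPM in WT combination, and 55.3 to 208.0 and 220.9 to 313.5 CPM in the B-depleted groups. Of 12 cell-cycle genes 9 fell, with a median sum of 1459 CPM in WT isotype and 895.0 CPM in WT combination, and of 9 mitochondrially encoded genes, read as a sign of RNA quality, 5 fell (summed to 14890 to 20030 CPM in WT isotype and 8926 to 17100 CPM in WT combination). The part of these sets in the results below was not tested. Albumin (Alb) and alpha-fetoprotein (Afp), the defining genes of the labelled hepatoma, were detected in all groups, with Afp as low as 24.3 CPM in WT combination. The insulin-like growth factor gene Igf2, on the same hepatoma list, was near 0 in all groups. The 4 hepatoma markers summed to 158.4 to 1506 CPM in WT isotype, 89.96 to 271.2 in WT combination, 316.0 to 987.8 in B-depleted isotype and 401.6 to 658.2 in B-depleted combination. One library stood apart in 2 of the 9 B-cell markers: Ms4a1 and Cd79a summed to 2.00 CPM (28 counts) in B-depleted combination replicate 5, above all 5 WT isotype libraries (0.588 to 1.66 CPM), and to 0.641 CPM or less in the other B-depleted libraries. The sum of all 9 markers did not set it apart, at 18.6 CPM, within the 10.2 to 83.7 CPM of WT isotype and below the highest B-depleted isotype library (30.0 CPM). In bulk RNA, fewer cells of a type and less RNA per cell cannot be told apart.

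Compared per kilobase of exon (FPKM, mean ± SD over 21 libraries), the lactate dehydrogenase gene Ldha was the highest of the 10, at 189.5 ± 38.1, followed by Pgk1 at 134.5 ± 25.2 and Bnip3 at 94.1 ± 26.3. Ndrg1 (68.9 ± 22.7), Egln3 (60.1 ± 14.7), Slc2a1 (53.6 ± 10.4), Vegfa (53.3 ± 16.1) and Hk2 (48.0 ± 14.7) followed, and neighbours among these 5 differed by less than their SD. The first 3 kept this order in each group mean, and the order of the 5 varied, with Egln3 (53.7) above Ndrg1 (49.1) in B-depleted combination. Pfkfb3 stood at 18.0 ± 7.21 FPKM and Car9 at 1.35 ± 0.547 FPKM. The isozymes differed in level too. The muscle-type subunit gene Ldha stood far above the heart-type gene Ldhb (1.87 ± 1.14 FPKM). Hk2 stood above Hk1 (15.3 ± 1.79 FPKM) in each group mean. Hk3 was below Hk2 in WT isotype (10.4 ± 2.99 against 61.4 ± 16.3 FPKM) and in both B-depleted groups. In WT combination it was at 39.3 ± 3.68 against 33.98 ± 10.67 FPKM for Hk2, a difference within the SD. The liver-type transporter Slc2a2, which marks normal hepatocytes, was at 0.0167 ± 0.0222 FPKM. The neuronal-type transporter Slc2a3 was at 29.4 ± 13.5 FPKM in WT combination, below the 45.9 ± 10.6 FPKM of Slc2a1. In the other 3 groups the means of these transporters differed by less than the larger SD, and in B-depleted isotype Slc2a3 was the higher one (63.2 ± 13.2 against 58.6 ± 12.3 FPKM).

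In WT tumours, 3 of the 10 genes fell with the combination and 1 rose. Hk2, which traps glucose in the cell as its phosphate, fell to 0.559 of its isotype level. Ldha, which makes lactate from pyruvate, fell to 0.730, and Ndrg1, a stress-induced gene of cell differentiation, fell to 0.642. Pfkfb3, which makes the sugar bisphosphate that activates phosphofructokinase, rose 1.72-fold. Of all 19061 genes tested, 50.0% were called in this comparison, 25.0% higher and 25.0% lower, so 4 of 10 is a share below that of all genes. Calls are edgeR quasi-likelihood tests with a Benjamini-Hochberg adjusted p, over all genes, under 0.05. The log2 fold change was negative for 9 of the 10 genes, and its median was -0.45 against -0.00086 over all genes. The libraries of the 2 groups did not overlap for 1 of the 10 genes, Pfkfb3, and for 29.3% of all genes.

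**Figure D1:**
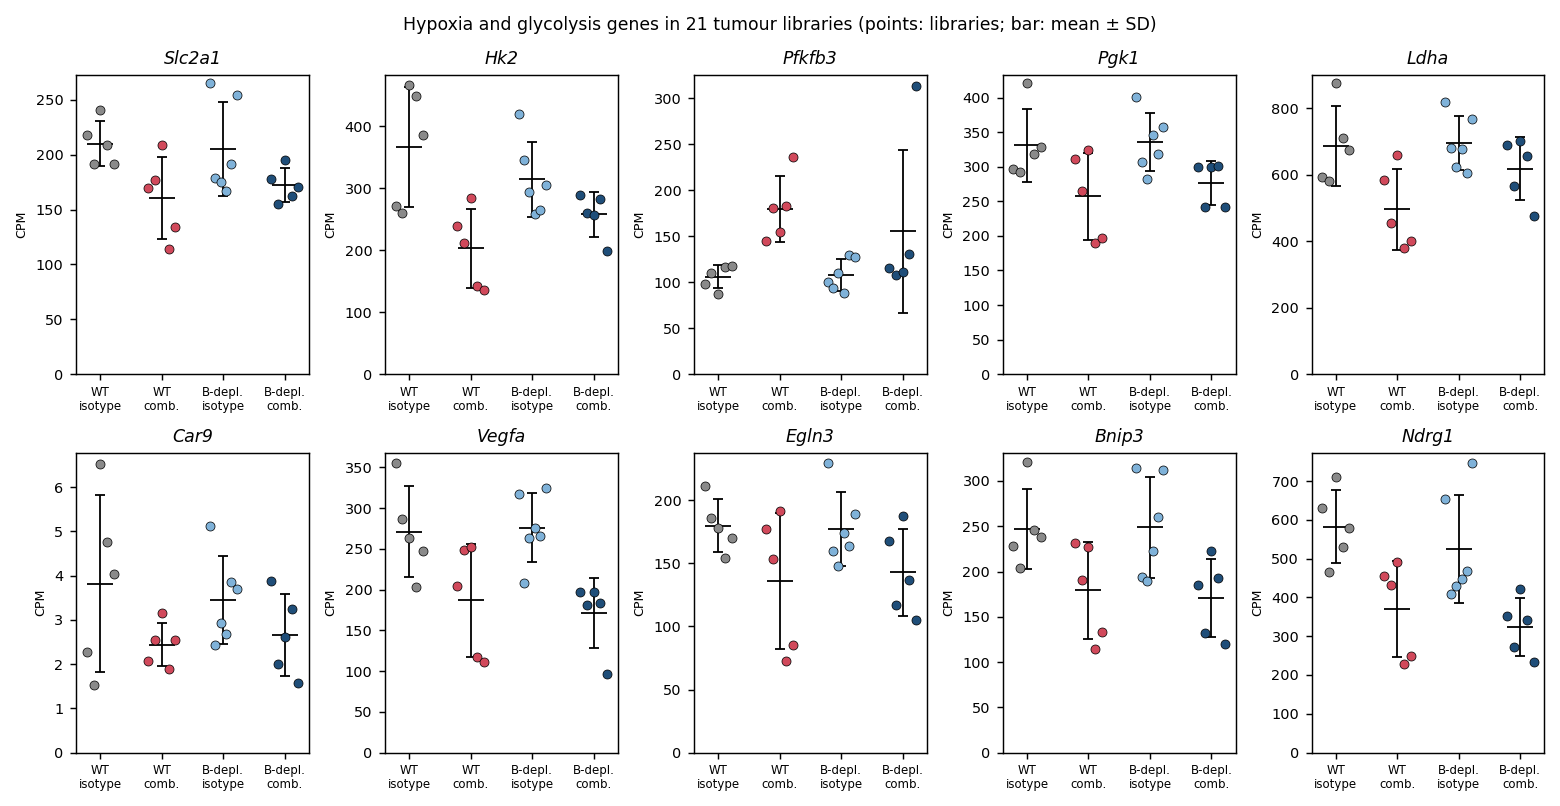
Level of each of the 10 genes in CPM (vertical axes from 0) in the 4 groups; points are libraries in replicate order and bars are mean ± SD. Pfkfb3 is above all WT isotype libraries in each of the 5 WT combination libraries and reaches 313.5 CPM in B-depleted combination replicate 5, and WT combination replicates 4 and 5 are the 2 lowest of their group for 8 of the other 9 genes.

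Glucose uptake and its first steps come first. Slc2a1 (chromosome 4, 119108711 to 119137983, plus strand, GRCm38) encodes GLUT1, the transporter of basal glucose uptake in many cells. It was at 217.9, 192.0, 240.6, 208.6 and 191.3 CPM in WT isotype and at 169.7, 176.6, 209.1, 114.2 and 134.4 CPM in WT combination. Of the combination libraries 4 lay below all isotype libraries, and the change of -0.37 ± 0.16 (log2, SE) did not pass (edgeR adjusted p = 0.055). Hk2 (chromosome 6, 82725025 to 82774454, minus strand) encodes the hexokinase typical of tumours. It went from 270.4, 260.3, 466.5, 448.9 and 386.1 CPM to 239.7, 212.1, 284.2, 141.7 and 136.3 CPM. WT isotype replicates 1 and 2 were its lowest isotype libraries, and combination replicate 3 overlapped with them. The change was -0.84 ± 0.21 (edgeR adjusted p = 0.00307), and the call held in all 21 refits that left out 1 library.

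Pfkfb3 (chromosome 2, 11471433 to 11554077, minus strand) was the exception to the direction of the rest. It was at 98.4, 109.8, 87.7, 116.2 and 117.4 CPM in WT isotype and at 144.4, 180.2, 154.8, 182.7 and 236.6 CPM in WT combination. Each combination library lay above all isotype libraries, with a change of 0.79 ± 0.25 (edgeR adjusted p = 0.0135), and the call also held in all 21 refits. The 2 highest libraries, replicates 4 and 5, are those above 20000 CPM in fibroblast markers. Without them and B-depleted combination replicate 5 the change was 0.61 ± 0.13 (adjusted p = 0.00282), and without WT isotype replicates 1 and 2, chosen like the former set after the data were seen, for hepatoma markers under 200 CPM, it was 0.76 (adjusted p = 0.0525). That refit took low libraries from the isotype group alone, while 3 of the 5 WT combination libraries were also under 200 CPM and stayed in.

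In the lower part of the pathway Ldha fell and Pgk1 did not pass. Pgk1 (chromosome X, 106187100 to 106203699, plus strand) encodes phosphoglycerate kinase, which makes the first ATP of the pathway's payoff. Its levels were 296.1, 292.0, 421.7, 318.7 and 328.4 CPM in WT isotype and 311.5, 265.3, 324.6, 189.2 and 197.1 CPM in WT combination (-0.35 ± 0.15, edgeR adjusted p = 0.0586). Ldha (chromosome 7, 46841475 to 46855627, plus strand) was at 591.7, 580.7, 876.1, 710.4 and 673.0 CPM and at 583.3, 455.3, 659.6, 378.5 and 401.8 CPM in the same groups. Of the combination libraries 3 lay below all isotype libraries, and the change was -0.45 ± 0.16 (edgeR adjusted p = 0.0213). The call of Ldha was lost without WT isotype replicate 3 (0.0908) or WT combination replicate 4 (0.0724) or 5 (0.0687).

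Among the hypoxia genes outside glycolysis, Ndrg1 alone passed in WT tumours. Ndrg1 (chromosome 15, 66929318 to 66969640, minus strand) was at 630.3, 465.3, 709.7, 529.2 and 579.7 CPM in WT isotype and at 454.4, 431.9, 490.6, 228.3 and 247.9 CPM in WT combination. Replicate 3 of the combination was the one library within the isotype range, and the change was -0.64 ± 0.22 (edgeR adjusted p = 0.0241). The call of Ndrg1 was also lost without WT isotype replicate 3 (0.0773) or WT combination replicate 4 or 5 (0.0791 for each). Vegfa (chromosome 17, 46016993 to 46032369, minus strand), the growth factor that drives new vessels, was at 354.8, 286.0, 263.3, 203.0 and 247.7 CPM and at 204.3, 249.1, 252.7, 117.0 and 111.0 CPM (-0.52 ± 0.23, adjusted p = 0.0654 by edgeR). Its 2 lowest libraries, at 117.0 and 111.0 CPM, are again replicates 4 and 5.

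Egln3 and Bnip3 showed the same split of the WT combination group. Egln3 (chromosome 12, 54178981 to 54203860, minus strand) encodes PHD3, a HIF prolyl hydroxylase that is itself a HIF target. In WT combination it was at 177.2, 153.5 and 191.3 CPM in replicates 1 to 3 and at 72.7 and 85.2 CPM in replicates 4 and 5, against 154.3 to 211.7 CPM in WT isotype (-0.39 ± 0.22, edgeR adjusted p = 0.149). Bnip3 (chromosome 7, 138890836 to 138909519, minus strand), a receptor for the removal of mitochondria, was at 231.5, 190.8 and 226.8 CPM and at 114.8 and 132.7 CPM in the same libraries, against 203.4 to 320.8 CPM (-0.45 ± 0.21, edgeR adjusted p = 0.0854). For 8 of the 9 genes other than Pfkfb3, replicates 4 and 5 were the 2 lowest of the group. Car9 (chromosome 4, 43506966 to 43513729, plus strand), a membrane carbonic anhydrase, rested on 22 to 111 counts per library and was at 1.53 to 6.53 CPM in WT isotype and 1.90 to 3.15 CPM in WT combination (-0.64 ± 0.33, edgeR adjusted p = 0.112). Its value is uncertain because the antisense gene Gm12454 overlaps it with 24.8% of its counts, and the strand setting of the counting is not given in the sources used here.

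How many of the 10 genes were called in WT tumours depended on single libraries and on the model. Without 1 library the count ran from 2 to 9. It was 2 without WT isotype replicate 3, WT combination replicate 4 or WT combination replicate 5, 7 without WT isotype replicate 2, and 9 without WT combination replicate 3. It was 7 by DESeq2 and by limma voom, where 10079 and 9674 of all genes were called, against 9529 in the main model. Without the 2 WT isotype libraries low in hepatoma markers the count was 5, all lower, and 9753 of all genes were called. The count was 3 without a filter on low counts, with only the groups compared and with a block by description number. In these 8541, 8640 and 8249 of all genes were called. It was 2, Hk2 (edgeR adjusted p = 0.0451) and Pfkfb3, without the 3 libraries high in fibroblast markers. In that refit the calls over all genes also went down, to 5660, and the median change of the 10 genes was -0.18. When the sum of 4 Y-linked genes was added as a covariate, 0 of 10 were called, 77 of all genes were, and all 10 signs turned, to a median of 0.23. That level was 47.6 to 79.2 CPM in WT isotype and 134.7 to 250.5 CPM in WT combination, so in WT tumours what moves with it and the treatment cannot be told apart.

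In B-depleted tumours 0 of the 10 genes were called, where 0.341% of all genes were (65 by edgeR, and 2734 at an unadjusted p under 0.05). No member was called by DESeq2 or limma voom, or in any of the 21 refits without 1 library. The direction was as in WT for each gene, with 9 negative changes and a positive one for Pfkfb3, and the median was -0.29. The largest 3 were Ndrg1 (-0.69 ± 0.22, adjusted p = 0.164), Vegfa (-0.68 ± 0.22, adjusted p = 0.175) and Pfkfb3 (0.56 ± 0.24, adjusted p = 0.283), all by edgeR. Bnip3 followed at -0.54 ± 0.21 (adjusted p = 0.245) and the other 6 lay between -0.38 and -0.16.

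Vegfa was at 208.3 to 324.7 CPM in B-depleted isotype, with a median of 270.5, and at 196.9, 181.5, 197.1, 183.8 and 96.0 CPM in B-depleted combination. All 5 combination libraries lay below all 6 isotype libraries. Vegfa was the only one of the 10 genes whose 2 groups did not overlap here, and 2.01% of all genes did not overlap. Ndrg1 was at 408.9 to 747.0 CPM with a median of 457.6 in isotype, and at 351.9, 271.3, 422.6, 341.3 and 233.3 CPM in combination, where 4 libraries lay below all isotype libraries. Bnip3 was at 189.3 to 314.7 CPM with a median of 241.8, and at 185.2, 132.0, 222.2, 192.8 and 119.5 CPM, with 3 libraries below. Egln3 was at 147.8 to 229.9 CPM with a median of 169.0, and at 168.0, 116.9, 188.0, 136.5 and 105.0 CPM, the groups overlapping.

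Pfkfb3 in these tumours rested on 1 library. It was at 88.0 to 130.1 CPM with a median of 104.9 in B-depleted isotype and at 115.9, 108.1, 110.7, 130.2 and 313.5 CPM in combination, where replicate 5 lay far above the other 4. That library is the one with Ms4a1 and Cd79a above the WT isotype range and with 25240 CPM of fibroblast markers, and it was the lowest of its group for 7 of the other 9 genes. Without the 3 libraries high in fibroblast markers the change was 0.11 ± 0.12. Hk2 was at 258.7 to 420.0 CPM with a median of 298.6, and at 289.6, 260.6, 256.2, 282.6 and 199.0 CPM (-0.27 ± 0.20, edgeR adjusted p = 0.544). Ldha was at 606.1 to 818.8 CPM with a median of 679.0, and at 688.8, 567.1, 701.5, 655.7 and 475.6 CPM (-0.16 ± 0.15, edgeR adjusted p = 0.65). The groups of both genes overlapped. Slc2a1 (167.3 to 265.5 against 154.9 to 194.8 CPM), Pgk1 (282.1 to 400.7 against 241.5 to 301.5 CPM) and Car9 (2.44 to 5.13 against 1.57 to 3.89 CPM) overlapped as well.

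**Figure D2:**
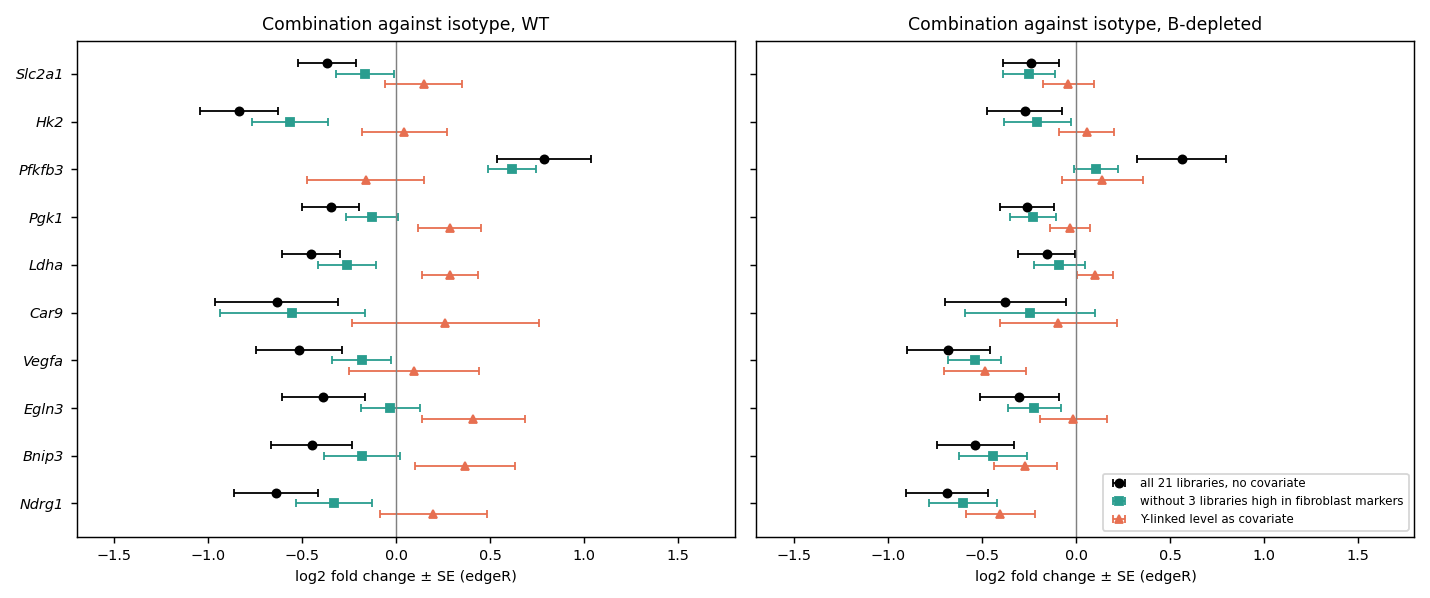
log2 fold change ± SE by edgeR (horizontal axes) of the combination over isotype in WT tumours (left) and B-depleted tumours (right) for the 10 genes, with all libraries, without the 3 libraries above 20000 CPM in fibroblast markers, and with the Y-linked level as a covariate. Without those 3 libraries Pfkfb3 stays at 0.61 in WT and goes to 0.11 in B-depleted tumours, and with the covariate all 10 WT values change sign.

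Without antibodies against PD1 and CTLA4, these genes had no called change between B-depleted and WT tumours. The B-cell markers had none either, with 0 of 7 called and a median of -1.27. They summed to 10.2 to 83.7 CPM in WT isotype and 2.57 to 30.0 CPM in B-depleted isotype, so the depletion itself overlapped here. Under the combination 7 of 7 were lower in B-depleted tumours. Of all genes 0.0% were called between B-depleted and WT isotype tumours (0 by edgeR, 5 by DESeq2, 0 by limma voom, and 563 at an unadjusted p under 0.05), and of the 10 genes 0 were. The changes ran from -0.24 ± 0.20 for Hk2 to 0.018 ± 0.24 for Pfkfb3, with a median of -0.022. Each gene's groups overlapped. A p that misses the threshold does not show that levels were the same.

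Under the combination, 29.1% of all genes differed between B-depleted and WT tumours and 0 of the 10 genes did. The changes ran from -0.21 for Ndrg1 and for Pfkfb3 to 0.32 ± 0.21 for Hk2 and 0.30 ± 0.16 for Ldha, with a median of 0.066. Pfkfb3 was at 108.1 to 313.5 CPM in the B-depleted and 144.4 to 236.6 CPM in the WT combination group. Without B-depleted combination replicate 5 its change was -0.66 (edgeR adjusted p = 0.00324), since the remaining 4 libraries lie below all 5 WT ones. Without WT combination replicate 3 Ldha was called (0.44, edgeR adjusted p = 0.028). The difference between the 2 antibody responses was called for 0.0262% of all genes (5 by edgeR, 1210 by DESeq2) and for 0 of the 10. It was largest for Hk2, at 0.56 ± 0.29 (edgeR adjusted p = 0.216, unadjusted p = 0.0626), and was -0.22 ± 0.34 for Pfkfb3 (adjusted p = 0.689 by edgeR). Without B-depleted combination replicate 5, the library at 313.5 CPM of Pfkfb3, the difference for Pfkfb3 was -0.68 (edgeR adjusted p = 0.0428). In that refit the difference was called for 1382 of all genes, against 5 with all libraries.

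The balance of isozymes was compared within each library, which does not depend on how libraries are scaled. The log2 ratio of Ldha to Ldhb was 8.03, 7.42, 8.91, 9.01 and 8.93 in WT isotype and 7.64, 6.58, 7.40, 5.81 and 5.67 in WT combination, a difference of -1.84 (exact two-sided permutation p = 0.0159, adjusted p = 0.0952 over 8 tests). In B-depleted combination it was 7.98, 8.20, 9.50, 8.17 and 6.87, higher by 1.52 than in WT combination (exact permutation p = 0.0397, adjusted p = 0.0952). In B-depleted tumours the ratio differed by -0.29 between combination and isotype (exact permutation p = 0.597). The log2 ratio of Hk2 to Hk1 had a mean of 1.39 ± 0.51 (SD, n = 5) in WT isotype and 0.65 ± 0.25 (n = 5) in WT combination (exact permutation p = 0.0238, adjusted p = 0.0952), and 1.19 ± 0.27 (n = 6) and 1.06 ± 0.25 (n = 5) in the B-depleted groups (exact permutation p = 0.387). The 4 ratios at 0.0952 passed once B-depleted combination replicate 5 was left out (exact permutation adjusted p = 0.0476). The comparisons of WT combination with WT isotype hold no B-depleted library. Their differences stayed at -1.84 for Ldha over Ldhb and -0.732 for Hk2 over Hk1, so for them only the adjustment over the 8 tests changed. With 5 libraries against 5 the smallest p that 252 splits allow is 0.00794. Ldhb rests on few counts, at a mean of 2.05 CPM in WT isotype and 5.25 CPM in WT combination.

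Other genes of the pathway were counted in lists, beside the 50.0% of all genes called in WT tumours. Of 18 further glycolytic enzyme genes tested out of 20 listed, 3 rose and 6 fell with the combination in WT tumours, with a median log2 fold change of -0.16. Hk3, the hexokinase of myeloid cells, rose from 38.2 to 144.8 CPM (1.95 ± 0.25, adjusted p = 3.99e-05 by edgeR), and the platelet-type phosphofructokinase Pfkp rose from 142.2 to 218.8 CPM (0.64). The liver-type pyruvate kinase gene Pklr fell from 13.1 to 5.83 CPM (-1.14). Macrophage markers moved with Hk3, all 10 of 10 rising and their sum going from 1061 to 2006 CPM in isotype to 3185 to 5984 CPM in combination, and all 9 of 9 hepatocyte markers fell with Pklr. Their part in these changes was not tested. In the 6 lists together 37 of 73 genes were called in WT tumours, a share near that of all genes, 14 higher and 23 lower, and 19 without the 3 libraries high in fibroblast markers. Of 7 genes listed under gluconeogenesis, the making of glucose, 3 were tested and 1 fell, G6pc3 (-0.29). Its call was lost without WT isotype replicate 3 (edgeR adjusted p = 0.0753) or 5 (0.0595) or WT combination replicate 2 (0.0552), 4 (0.113) or 5 (0.112).

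Of 12 genes of transport and control tested out of 13 listed, 4 rose and 6 fell, with a median of -0.22. Pdk3, a kinase of pyruvate dehydrogenase, rose from 8.36 to 19.5 CPM (1.25), while its relative Pdk4 fell from 50.1 to 25.3 CPM (-0.97). Pfkfb1, the liver counterpart of Pfkfb3, fell from 14.4 to 7.16 CPM (-0.99 ± 0.21, edgeR adjusted p = 0.000976). The lactate transporter Slc16a1 fell from 76.3 to 45.4 CPM (-0.74), and Slc16a3, the transporter typical of lactate export and named here after its value was seen, rose from 27.7 to 59.4 CPM (1.12). Thus within the family of Pfkfb3 and within that of the lactate transporters, members changed in opposite directions in the model without covariates. With the Y-linked covariate Pdk3 turned negative (-0.36), as Pfkfb3 did.

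**Figure D3:**
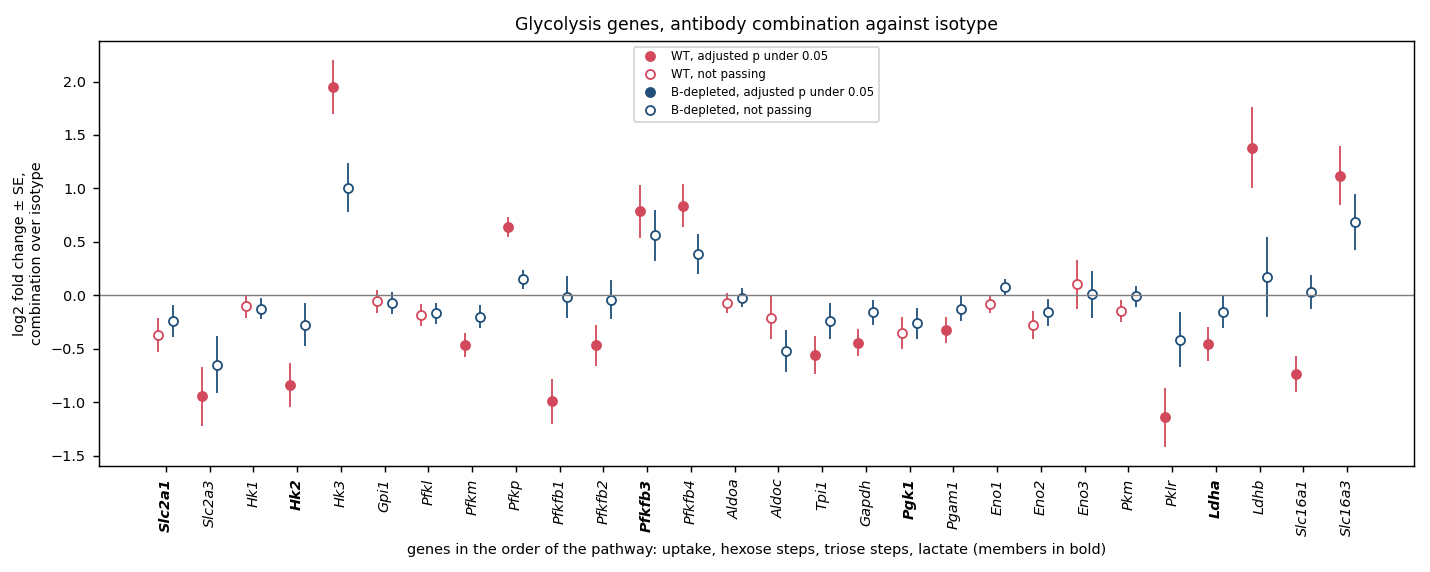
log2 fold change ± SE (vertical axis) of the combination over isotype for glycolysis genes in pathway order, in WT (red) and B-depleted tumours (blue); filled points passed at an adjusted p under 0.05 and the 5 glycolysis genes described above are in bold. In WT, in this model without covariates, Hk3, Pfkp and Pfkfb3 rise while Hk2, Pklr and Ldha fall, and no point is filled in B-depleted tumours, where Hk3 is at 1.01.

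The regulators of HIF were called in 5 of 10 cases in WT tumours, the same share as the 50.0% of all genes. Of them 1 was higher and 4 lower, and the median of the 10 was -0.23. Hif1a, the oxygen-regulated subunit, rose from 256.0 to 391.9 CPM (0.63 ± 0.18, adjusted p = 0.00729 by edgeR). Each combination library lay above all isotype libraries for Hif1a, and the 2 groups did not overlap for 29.3% of all genes. Arnt2, the neuronal partner of Hif1a, fell from 83.8 to 27.3 CPM (-1.60 ± 0.30), and Hif1an, the hydroxylase that blocks HIF from its coactivator, fell by 0.28. Cited2, which competes with HIF for that coactivator, fell by 0.53. Hif1an lost its call without WT isotype replicate 3 (0.0543), and Cited2 without that library (0.0747) or WT combination replicate 5 (0.0566). Of 21 other hypoxia targets 3 rose and 5 fell, with a median of -0.23. Kdm3a, a histone demethylase, fell from 203.6 to 123.6 CPM (-0.71), and Ddit4, an inhibitor of the growth kinase mTORC1, from 153.6 to 73.2 CPM (-1.05). The collagen lysyl hydroxylases Plod2 (1.33) and Plod1 (0.91) rose, beside 6 of 8 fibroblast markers that rose. Their part was not tested.

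The VEGF list held receptors and ligands other than Vegfa, and 3 of 9 rose and 1 fell in WT tumours, with a median of 0.59. The coreceptors Nrp1 (78.7 to 146.6 CPM, 0.92) and Nrp2 (0.87) and the receptor Flt1 (0.59) rose, and the lymphatic receptor Flt4 fell from 74.9 to 50.6 CPM (-0.54). Endothelial markers rose in 6 of 9 cases in the same comparison, and their part was not tested. With the Y-linked covariate 0 of the 73 list genes were called in WT tumours, Hif1an (0.14), Cited2 (0.19) and G6pc3 (0.090) turned positive, and Plod1 (-0.37), Plod2 (-0.13), Nrp1 (-0.32) and Nrp2 (-0.15) turned negative. In B-depleted tumours 0 of the 73 genes were called with the combination by edgeR, and 1 was by DESeq2 and 1 by limma voom, Hk3 in both (adjusted p = 0.00467 and 0.0313). By edgeR Hk3 was closest, at 43.0 and 85.0 CPM (1.01 ± 0.23, edgeR adjusted p = 0.0649), and was called without B-depleted isotype replicate 3 (0.0206) or 5 (0.0322). It was followed in the other lists by Kdm3a (-0.44, adjusted p = 0.178), Slc16a3 (0.69, 0.238), Flt4 (-0.33, 0.304) and Hif1a (0.38, 0.322). The gluconeogenic gene Pcx was at 0.48 (0.671).

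Between B-depleted and WT tumours under the combination, 16 of 73 genes of these lists were called by edgeR, 7 higher and 9 lower, a share below the 29.1% of all genes. The number was 5 without the 3 libraries high in fibroblast markers, 9 of 80 without a filter on low counts and 0 with the Y-linked covariate. Pfkp (-0.49) and Hk3 (-0.78) were lower in B-depleted tumours, as were Nrp1 (-0.82), Flt1 (-0.53) and Nrp2 (-0.75) of the VEGF list. Pklr (0.87) was higher, as were Slc16a1 (0.72), Arnt2 (1.34) and all 3 genes tested of the gluconeogenesis list, Pck2 (0.46), G6pc3 (0.33) and Pcx (1.43). The mitophagy receptor Bnip3l (-0.31), a relative of Bnip3, and the mitochondrial protein gene Higd1a (-0.52) were the 2 called of 21 hypoxia targets. Calls of Arnt2, Pfkp, Slc16a1, Bnip3l and Higd1a held in all 21 refits without 1 library. Nrp1 lost its call without WT combination replicate 4 (0.0529), Flt1 without B-depleted combination replicate 3 (0.0533), and Pck2 without WT combination replicate 5 (0.0604) or B-depleted combination replicate 2 (0.0545) or 3 (0.054). Hk3, Pklr, Nrp2, G6pc3 and Pcx each lost theirs without WT combination replicate 4 or 5, with adjusted p from 0.0563 to 0.0972 by edgeR, and without B-depleted combination replicate 1 or 3 (0.0501 to 0.0732). Further losses followed without WT combination replicate 2 (Nrp2, G6pc3, Pcx), B-depleted combination replicate 2 (Hk3, Nrp2, G6pc3) or 4 (Hk3, Pklr, Nrp2, G6pc3, and Pcx at 0.315, with a log2 fold change of 0.61), and for Pcx without WT isotype replicate 5, WT combination replicate 1 or 3, or B-depleted isotype replicate 1, 2 or 4. Macrophage markers were lower in 8 of 10 cases and hepatocyte markers higher in 8 of 9 in the same comparison, and their part was not tested. The WT combination libraries enter this comparison and that in WT tumours, so the 2 are not independent. Under isotype and in the difference between the antibody responses, 0 of the 73 were called by edgeR. In that difference 4 were called by DESeq2, where 1210 of all genes were. Without the 2 WT isotype libraries low in hepatoma markers edgeR called 10 of 74 in it, and 2007 of all genes. Under isotype that refit called 1 of the 74, and 25 of all genes. Of the genes named here, Arnt2 and Pfkp were called in the difference without WT combination replicate 3 or B-depleted combination replicate 5. Slc16a1 was called without the former and Pfkfb1 without the latter (edgeR adjusted p from 0.0252 to 0.0387). In these 2 refits 1540 and 1382 of all genes were called in the difference.

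Within groups, 9 of the 10 genes rose and fell together from library to library. Deviations of log2 CPM from the group mean were correlated over the 21 libraries. All 36 pairs without Pfkfb3 were positive, with Pearson r from 0.23 to 0.95 and a median of 0.74, and 33 had a permutation p under 0.05 after adjustment over 45 pairs, by r and by Spearman's rho. Without the 2 libraries farthest from the median these pairs ran from 0.22 to 0.93. Bnip3 and Ndrg1 were the closest pair (0.95), and Vegfa and Car9 the loosest. Pfkfb3 was negative with each of the other 9, from -0.58 with Vegfa to -0.024 with Slc2a1. Of these 9 pairs 3 passed by r and 1 by rho, and without the 2 farthest libraries they ran from -0.31 to 0.062, with 7 of 9 still negative. Those 2 were B-depleted combination replicate 5 and WT combination replicate 5 in 7 of the 9 pairs. Of the 3 that passed, Vegfa went from -0.58 to -0.22, Ldha from -0.46 to -0.31 and Hk2 from -0.38 to -0.31. All libraries share the scaling to a total, which ties their levels to each other.

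**Figure D4:**
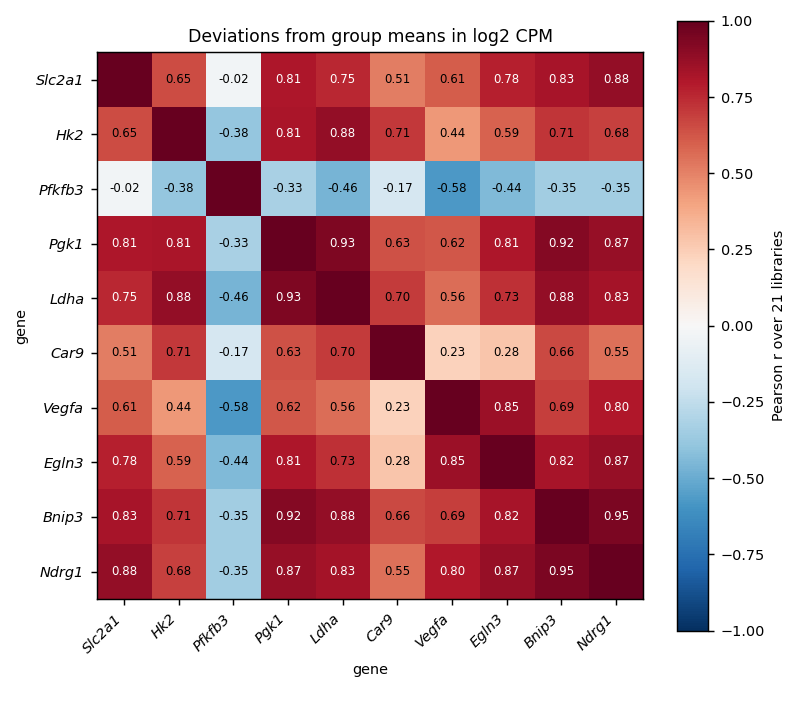
Pearson r over 21 libraries between the 10 genes (both axes), after subtraction of group means from log2 CPM; red is positive and blue negative. The 9 genes other than Pfkfb3 form a block of positive values from 0.23 to 0.95, and the row of Pfkfb3 is negative.

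The genes most like the 10 in this pattern were found among 13397 others with a mean of at least 1 CPM, by the Pearson r of their deviations with the mean standardized deviation of the 10 genes. Pkm, the pyruvate kinase of proliferating cells, was first at 0.956, and Tpi1 (0.921), Pfkl (0.915) and Gapdh (0.903) were also among the top 10, so 4 of the 10 were glycolytic enzymes of the list. The others were Alkbh5 (0.925), Npepps (0.923), Rnf128 (0.913), Rnf19a (0.912), Zranb1 (0.900) and Maff (0.900). Without the 2 libraries farthest from the median, WT combination replicates 3 and 4, Pkm was at 0.931 and the 10 ran from 0.836 to 0.931. These are the highest of 13397 values and carry no test.

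The same deviations were set against the marker sums in 20 relations. With the hepatocyte markers, Hk2 had Pearson r = 0.915 and Spearman rho = 0.921 (permutation adjusted p = 0.0002 for each), and r = 0.917 without the 2 farthest libraries. Ldha had r = 0.906 and rho = 0.922 (permutation adjusted p = 0.0002 for each; r = 0.897 without the 2). Vegfa was the weakest of the 9 positive genes, at r = 0.491 and rho = 0.447 (permutation adjusted p = 0.0731 and 0.0934, and r = 0.236 without the 2). Pfkfb3 was negative with the hepatocyte markers, at r = -0.541 and rho = -0.456 (permutation adjusted p = 0.0233 and 0.0431). Without the 2 farthest libraries its r was -0.252. With the fibroblast markers Pfkfb3 had r = 0.780 and rho = 0.695 (permutation adjusted p = 0.00415 and 0.00302), and r = 0.564 without B-depleted combination replicates 3 and 5. The other 9 genes had negative r with fibroblast markers, from -0.762 for Egln3 to -0.401 for Car9, the last not passing (permutation adjusted p = 0.0506). Whether cell makeup accounts for the changes between groups was not tested beyond the refits above.

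**Figure D5:**
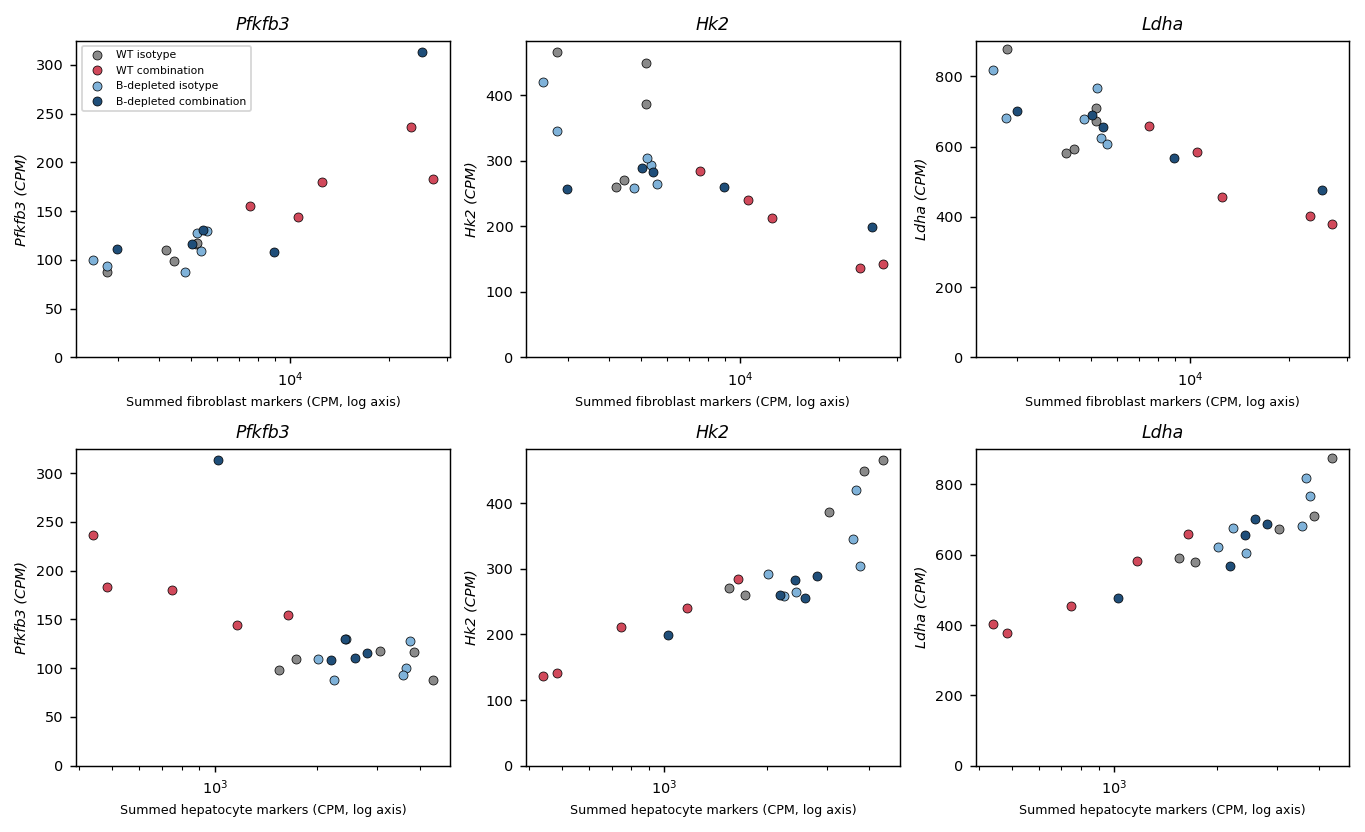
Pfkfb3, Hk2 and Ldha in CPM (vertical axes) against the summed fibroblast markers (upper row) and hepatocyte markers (lower row) in CPM on log axes, 1 point per library. Pfkfb3 is high in the libraries with most fibroblast transcripts, up to 313.5 CPM, and Hk2 and Ldha increase with the hepatocyte sum from WT combination to WT isotype libraries.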

How the data were processed

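Messenger RNA of 21 tumours was sequenced from TruSeq Stranded mRNA libraries, per the labels' protocols. The authors deposited raw read counts per Ensembl gene. The submitters' processing notes name cutadapt 2.4, the aligner STAR 2.7.2a and the build GRCm38. For the counting program, its strand setting and its annotation, names were not given in the sources used here. Groups came from the sample titles. Symbols and positions were taken from GENCODE M21 (55227 of 55487 identifiers matched).

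Counts were fitted in R 4.3.3 with edgeR 4.0.16: filterByExpr by the 4 groups, TMM scaling, robust quasi-likelihood on all 21 libraries in 1 model, Benjamini-Hochberg over 19061 genes. The standard error is the log2 fold change divided by the square root of F. CPM uses library totals, and FPKM divides it by the summed exon length of a gene. Ratios within libraries were compared by exact permutation, correlations by 100000 permutations (numpy 2.4.6). The script was tested on simulated data. Depth was 9.52 to 19.17 M counts, which leaves Car9 with 22 to 111. No 2 columns were identical; within groups the chi-square between 2 libraries was at least 6.99 per degree of freedom. The members, lists and alternatives were chosen with earlier results of these data known, and 2 alternatives that leave out libraries were added after seeing the data. The genes named are the 10 members in every comparison, the isozymes and transporters beside them, up to 4 called genes of smallest p per list with a mean of at least 1 CPM (or the 2 of smallest p where none was called, of which fewer are given), and the 10 genes most like the members; some genes of the lists enter the counts and are not reported here by name. For the comparison under isotype and for the interaction edgeR on all libraries called no gene of the lists. Of the genes of smallest p, Hif3a was at -2.19 under isotype (edgeR unadjusted p = 0.0033). In the interaction Pfkp was at -0.49 (edgeR adjusted p = 0.0768) and Arnt2 at 1.31 (edgeR adjusted p = 0.0948). The all-library values of the other list genes in these comparisons are not reported here. DESeq2 1.42.0, limma voom 3.58.1, other scaling and filters, thinning, replicate blocks, a Y-linked covariate and the removal of single libraries were tried as alternatives.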

Additional observations from a re-analysis of the deposited data

Results flagged for a closer look

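Of the 48 gene and group combinations searched, 3 held a library that stood apart from the rest of its group. By chance about 1 group in 20 is picked out by this criterion, which compares a library's gap to its nearest neighbour with the range of the group. Pfkfb3 was at 313.5 CPM in B-depleted combination replicate 5, against 108.1 to 130.2 CPM in the other 4 libraries. Vegfa was at 96.0 CPM in the same library, against 181.5 to 197.1 CPM. Pgk1 was at 421.7 CPM in WT isotype replicate 3, against 292.0 to 328.4 CPM. B-depleted combination replicate 5 also had the highest fibroblast sum (25240 CPM) and neutrophil sum (825.8 CPM) of its group. Its macrophage (3577 CPM), endothelial (496.9 CPM) and Y-linked (168.8 CPM) sums were the highest too. Its hepatocyte (1026 CPM) and cell-cycle (1085 CPM) sums were the lowest of the group. The part of any of these in its Pfkfb3 and Vegfa levels was not tested.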

How the results depend on the processing

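In the WT response Hk2 and Pfkfb3 kept their call in all 21 refits without 1 library, and Ldha and Ndrg1 lost theirs without any of 3. No member was called in the B-depleted response or under isotype in any refit or alternative. DESeq2 size factors in edgeR and a pseudocount of 0.5 CPM in the ratios moved no result past the limits used (1.5 times for a count, the threshold or the sign for a gene). Libraries with the same number did not pair: 3 of 21 correlated best with their own title number and 4 of 21 with their description number, so the blocks rest on a number only. Depth limits Car9 and Ldhb most. Except where a number of samples or genes shows it, the cause of a change was not tested.

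With the Y-linked covariate the number of genes called over all genes was 77 for the WT response, 31 for the B-depleted response, 16 for depletion under isotype, 4 for depletion under the combination and 0 for the interaction. The number of the 10 genes called was 0 for the WT response. Signs turned in the WT response for Slc2a1 0.15, Hk2 0.042, Pfkfb3 -0.16, Pgk1 0.28, Ldha 0.29, Car9 0.26, Vegfa 0.10, Egln3 0.41, Bnip3 0.37, Ndrg1 0.20, Hif1an 0.14, Cited2 0.19, Pdk3 -0.36, Plod2 -0.13, Plod1 -0.37, G6pc3 0.090, Nrp1 -0.32 and Nrp2 -0.15, in the B-depleted response for Hk2 0.056, Ldha 0.10 and Nrp1 -0.11, in depletion under isotype for Pfkfb3 -0.056, Pgk1 0.069, Ldha 0.081, Egln3 0.031 and Bnip3 0.091, in depletion under the combination for Slc2a1 -0.19, Hk2 -0.14, Pfkfb3 0.25, Pgk1 -0.25, Ldha -0.10, Car9 -0.40 and Egln3 -0.39, in the interaction for Slc2a1 -0.19, Pfkfb3 0.30, Pgk1 -0.32, Ldha -0.19, Car9 -0.35 and Egln3 -0.42. Without the 3 libraries high in fibroblast markers the number of genes called over all genes was 5660 for the WT response, 39 for the B-depleted response, 1509 for depletion under the combination and 1 for the interaction. The number of the 10 genes called was 2 for the WT response and 1 for depletion under the combination. Turned signs were found in depletion under the combination for Slc2a1 -0.14, Pgk1 -0.10 and Egln3 -0.23 and in the interaction for Slc2a1 -0.086, Pgk1 -0.10 and Egln3 -0.19. By DESeq2 the number of genes called over all genes was 10079 for the WT response, 397 for the B-depleted response, 5 for depletion under isotype and 1210 for the interaction. The number of the 10 genes called was 7 for the WT response. By limma voom the number of genes called over all genes was 9674 for the WT response and 103 for the B-depleted response. The number of the 10 genes called was 7 for the WT response. The sign was opposite in depletion under isotype for Pgk1 0.0058 and Ldha 0.011 and in the interaction for Ndrg1 0.019. With a replicate block by title number the number of genes called over all genes was 9583 for the WT response, 33 for the B-depleted response, 1 for depletion under isotype and 0 for the interaction. The number of the 10 genes called was 7 for the WT response. Signs turned in depletion under isotype for Pfkfb3 -0.053 and Vegfa -0.016 and in the interaction for Ndrg1 0.10. Without a filter on low counts the number of genes called over all genes was 35 for the B-depleted response, 1 for depletion under isotype and 3343 for depletion under the combination. Turned signs were found in depletion under isotype for Ldha 0.00056. With only the groups compared the number of genes called over all genes was 6 for the B-depleted response. The opposite sign was found in depletion under isotype for Ldha 0.0011. With a replicate block by description number the number of genes called over all genes was 14 for the B-depleted response and 1 for depletion under isotype. The sign was opposite in depletion under isotype for Pfkfb3 -0.12, Pgk1 0.028, Ldha 0.037, Egln3 0.025 and Bnip3 0.036. Without the 2 WT isotype libraries low in hepatoma markers the number of genes called over all genes was 40 for the B-depleted response, 25 for depletion under isotype and 2007 for the interaction. Signs turned in depletion under isotype for Pfkfb3 -0.00050 and Egln3 0.064 and in the interaction for Egln3 -0.021, Bnip3 0.029 and Ndrg1 0.0039. With libraries thinned to the shallowest the number of genes called over all genes was 1 for the interaction. Turned signs were found in depletion under isotype for Pgk1 0.011 and Ldha 0.017 and in depletion under the combination for Car9 -0.027.

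Without 1 library at a time, results that moved or turned had these ranges. For the WT response the values ran from 2 to 9 for the number of the 10 called. For the B-depleted response the values ran from 11 to 176 for the number of all genes called and from -0.34 to 0.67 for Pcx. For depletion under isotype the values ran from 0 to 2 for the number of all genes called, from -0.13 to 0.044 for Slc2a1, from -0.043 to 0.069 for Pfkfb3, from -0.054 to 0.14 for Pgk1, from -0.065 to 0.14 for Ldha, from -0.37 to 0.16 for Car9, from -0.079 to 0.13 for Vegfa, from -0.11 to 0.028 for Egln3 and from -0.091 to 0.14 for Bnip3. For depletion under the combination the values ran from 2182 to 7606 for the number of all genes called, from 0 to 1 for the number of the 10 called, from -0.019 to 0.21 for Slc2a1, from -0.0071 to 0.20 for Pgk1, from -0.061 to 0.23 for Car9, from -0.11 to 0.22 for Egln3 and from -0.22 to 0.021 for Bnip3. For the interaction the values ran from 0 to 1540 for the number of all genes called, from 0 to 1 for the number of the 10 called, from -0.055 to 0.20 for Pgk1, from -0.068 to 0.47 for Car9, from -0.10 to 0.26 for Egln3, from -0.24 to 0.029 for Bnip3 and from -0.20 to 0.091 for Ndrg1. The isozyme ratios ran from -2.10 to -1.60 for Ldha over Ldhb in WT combination against WT isotype, from -0.63 to 0.027 for Ldha over Ldhb in B-depleted combination against B-depleted isotype, from -0.29 to 0.15 for Ldha over Ldhb in B-depleted isotype against WT isotype, from 1.19 to 1.84 for Ldha over Ldhb in B-depleted combination against WT combination, from -0.87 to -0.60 for Hk2 over Hk1 in WT combination against WT isotype and from 0.32 to 0.49 for Hk2 over Hk1 in B-depleted combination against WT combination.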
